A study of Mus musculus with 24 samples.

Results

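The 10 genes described here, Me1, G6pdx, Pgd, Srebf1, Acly, Acaca, Fasn, Elovl6, Scd1 and Scd2, encode enzymes that supply NADPH or build fatty acids, and a transcription factor of that pathway. They were taken by gene name from a count table of 56691 genes, and all 10 passed the filter of at least 10 counts in at least 3 of 24 libraries, as did 21694 genes in all. The members were chosen by hand with results of these same libraries known, Me1's level after succinate among them. Which value led to the choice of each other gene is not recorded, so the values below describe the genes, and an adjusted p only places a gene among all genes tested.

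The RNA came from the distal jejunum of 24 mice, with 1 library per mouse. Males and females, wild type or Ptk6-/-, with or without succinate, made 8 groups of 3. Ptk6-/- mice carry a germline disruption of Ptk6, which encodes a cytoplasmic tyrosine kinase of epithelial cells, so the gene is lost in every tissue and not in the intestine alone. All mice were of the C57BL/6 background, were 9 to 11 weeks old and came from different litters of 1 colony. The control groups had regular water, and the succinate groups had 100 mM succinate in the drinking water for 7 days.

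Fatty acid synthesis in the cytosol joins acetyl units into palmitate and spends NADPH at each round of reduction. ATP citrate lyase (Acly) makes the acetyl-CoA, acetyl-CoA carboxylase (Acaca) commits it to synthesis, and fatty acid synthase (Fasn) assembles the chain, which Elovl6 lengthens and the desaturases Scd1 and Scd2 make monounsaturated. The NADPH comes from cytosolic malic enzyme (Me1), which turns malate into pyruvate, and from the oxidative pentose phosphate pathway, through glucose-6-phosphate dehydrogenase (G6pdx) and 6-phosphogluconate dehydrogenase (Pgd). Srebf1 encodes SREBP1, the factor that switches on much of this pathway in liver and fat. NADPH also serves the recycling of glutathione, and Me1, G6pdx and Pgd are known targets of NRF2, the factor of the response to oxidants, which binds the antioxidant response element.

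RefSeq promoter windows (GRCm38.p6, 250 bases before to 50 after each start) were at hand for 8 of the 10 genes, in 12 windows. They were searched on both strands for the core of the antioxidant response element, TGACNNNGC, because Me1, G6pdx and Pgd are its known targets. It was found in 3 of the 12 windows, 1 each of Me1, G6pdx and Pgd, and in 12.4% of all 32851 windows. The stretches before the start that hold it in Me1 and G6pdx are shown 5′ to 3′, with the match in capitals. That of Me1 runs along chr9:86695912-86696034 on the minus strand and its match spans the start, from position -6 to 3. That of G6pdx runs along chrX:74428881-74429000, also on the minus strand, with the match from position -57 to -49 on the opposite strand.
Me1: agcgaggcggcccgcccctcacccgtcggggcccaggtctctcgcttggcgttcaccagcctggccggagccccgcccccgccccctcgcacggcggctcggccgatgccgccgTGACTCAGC
G6pdx: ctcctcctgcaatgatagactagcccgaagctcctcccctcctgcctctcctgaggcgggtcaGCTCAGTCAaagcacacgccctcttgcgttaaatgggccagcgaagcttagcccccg
In Pgd the match began 4 bases into the transcript of the second of its starts. Neither the E-box CACGTG (7.15% of all windows) nor the sterol regulatory element (0.0913%) was in any of the 12 windows. The sterol regulatory element was searched only as 1 exact string of 10 letters. Sites that vary from that string were not searched, so its absence does not show that these windows lack such an element. CCAAT, the letters that NF-Y binds, was in 6 of them (37.4% of all windows), and the GC box GGGCGG was in 6 (35.7%). These matches are letters in a window, not measured binding.

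Total counts per library, to 6 digits, ran from 8080320 to 52824700. Counts of Ptk6 itself ran from 284 to 2405 in the 12 wild type libraries and from 7 to 61 in the 12 Ptk6-/- libraries. Replicate 1 of the male wild type controls, where 51.2% of counts were 18S ribosomal RNA, and replicate 1 of the succinate-treated male Ptk6-/- mice, with 29.7%, stood apart from the rest. So did replicate 2 of the succinate-treated female wild type mice, where 6 heart markers summed to 15356 CPM (counts scaled to an equal library total) against at most 202 in all other libraries. Levels below are CPM after scaling by the trimmed mean of M values (TMM), which compare libraries for 1 gene. Fold changes are from edgeR's quasi-likelihood test, and a call needed a change of at least 2-fold and an adjusted p (Benjamini-Hochberg, over all genes) under 0.05. The SE of an edgeR log2 fold change was worked back from the test, as its size divided by the square root of the F statistic.

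Me1 (ENSMUSG00000032418, chr9:86463424-86578006 on the minus strand in GRCm39) was low in every control mouse and high in every succinate-treated female. In female wild type mice it was at 19.2, 13.3 and 30.1 CPM in the controls and at 267, 207 and 197 CPM after succinate. In female Ptk6-/- mice it was at 14.8, 17.1 and 15.8 CPM in the controls and at 202, 361 and 309 CPM after succinate. No succinate-treated female overlapped with any control mouse.

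Succinate-treated males all lay below the succinate-treated females. In male wild type mice Me1 was at 11.2, 20.6 and 24.6 CPM in the controls and at 28.8, 89.9 and 176 CPM after succinate. In male Ptk6-/- mice it was at 21.0, 20.2 and 27.4 CPM in the controls and at 13.7, 16.5 and 51.1 CPM after succinate. Thus 2 of the 3 succinate-treated male Ptk6-/- mice lay inside the range of the 12 control mice, 11.2 to 30.1 CPM, and the third lay above it.

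**Figure D1:**
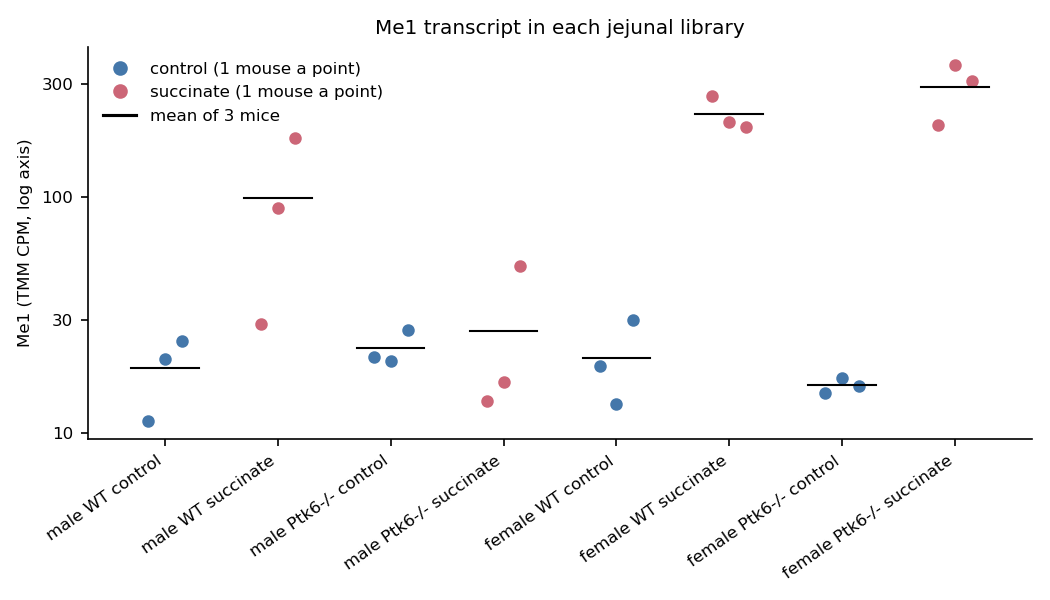
Me1 in each of the 24 libraries, in TMM CPM on a log axis, by sex, genotype and treatment; each point is 1 mouse and each line the mean of 3. The 12 control mice lie between 11.2 and 30.1 CPM, and the 6 succinate-treated females between 197 and 361 CPM.

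Ordered by mean level, Me1 stood at 291 ± 81.3 CPM (SD, n = 3) in succinate-treated female Ptk6-/- mice, 224 ± 38.0 in succinate-treated female wild type mice and 98.3 ± 74.1 in succinate-treated male wild type mice. The other 5 groups followed at 27.1 ± 20.8 in succinate-treated male Ptk6-/- mice, 22.9 ± 3.96 in male Ptk6-/- controls, 20.9 ± 8.49 in female wild type controls, 18.8 ± 6.84 in male wild type controls and 15.9 ± 1.15 in female Ptk6-/- controls. The highest pair of groups overlapped, and so did each pair of neighbours among the lowest 5. Succinate-treated male wild type mice all lay below succinate-treated female wild type mice, and overlapped with succinate-treated male Ptk6-/- mice.

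Succinate against control gave a log2 fold change of Me1 of 4.17 (SE 0.34, 3 against 3) in female Ptk6-/- mice, with an adjusted p of 0.0125 by edgeR. Me1 had the third smallest p of 19334 genes there and was 1 of 17 called, 0.0879% of the genes tested. In female wild type mice the log2 fold change was 3.44 (SE 0.38) and the p the second smallest of 18872 genes. No gene reached the threshold there (0% called), and the adjusted p of Me1 was 0.177. In male wild type mice it was 2.39 (SE 0.61, adjusted p 0.947) and in male Ptk6-/- mice 0.27 (SE 0.46, adjusted p 0.837), with 0% of genes called in either. Averaged over the 4 strata of sex and genotype in 1 fit of 24 libraries, Me1 was 5.91-fold higher after succinate (log2 fold change 2.56, SE 0.27, edgeR adjusted p 1.56e-05). That made it 1 of 158 genes called, 0.728% of 21694, with the 6th smallest p. The call in female Ptk6-/- mice was lost when any library but replicate 1 of the succinate group was left out, with log2 fold changes of 3.98 to 4.24. The replicate number as a block (4.13, edgeR adjusted p 0.245), an offset for gene length (4.02, adjusted p 0.067) and both together (3.98, adjusted p 0.303) ended it too, with the fold change about as large, whereas the averaged call held without each of the 24 libraries. Without the 3 libraries that stood apart, the averaged log2 fold change was 2.60 (edgeR adjusted p 0.000112). In a bulk sample, more cells that express a gene and more RNA per cell cannot be told apart.

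The genotype difference of Me1 was largest in succinate-treated males, and edgeR called none of those below. Ptk6-/- against wild type gave log2 fold changes of 0.27 (SE 0.25, adjusted p 0.553) in control males and -0.35 (SE 0.31, adjusted p 0.691) in control females by edgeR, and the call rule took 0.739% and 0.0158% of all genes there. After succinate it gave -1.83 (SE 0.71, adjusted p 1) in males and 0.38 (SE 0.34, adjusted p 0.932) in females, with 0% of genes called in both. The average over strata was -0.39 (SE 0.25, adjusted p 0.476), where 0.0184% of genes were called. Female against male averaged 1.05 (SE 0.25, adjusted p 0.0678), just short of the threshold that 0.36% of genes passed.

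Whether the change with succinate differed between genotypes was tested directly. The genotype by succinate interaction of Me1 was -2.10 on the log2 scale in males (SE 0.83, unadjusted p 0.0262, edgeR adjusted p 0.993) and 0.74 in females (SE 0.45, adjusted p 0.788). The difference between these, the interaction of sex, genotype and succinate, was 2.88 (SE 1.01, unadjusted p 0.00967, edgeR adjusted p 0.728). The interaction in males was -1.35 without replicate 3 of the succinate-treated wild type mice and -2.92 without replicate 3 of the succinate-treated Ptk6-/- mice, and the genotype difference after succinate in males was -1.11 and -2.64 without the same libraries. The interaction of sex and genotype in controls was -0.62 (SE 0.43, adjusted p 0.999). Without replicate 3 of the female wild type controls it was -0.26, and the genotype by succinate interaction in females 0.39. No gene at all passed in these 4 interactions (0% called).

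G6pdx (chrX:73453089-73472800, minus strand) makes the first NADPH of the pentose phosphate pathway, and its values in females lay apart by treatment. In female wild type mice it was at 64.9, 35.8 and 50.4 CPM in the controls and at 130, 109 and 95.1 CPM after succinate. In female Ptk6-/- mice it was at 55.7, 63.7 and 96.4 CPM in the controls and at 98.0, 121 and 160 CPM after succinate. The groups did not overlap in either genotype, though the Ptk6-/- groups came within 2 CPM of each other. Of all genes 13.3% were apart by treatment in wild type females and 21.2% in Ptk6-/- females. The log2 fold change in wild type females was 1.16 (SE 0.29), 2.24-fold, with an edgeR adjusted p of 0.51. In males the group means lay between 53.4 ± 25.1 CPM in succinate-treated Ptk6-/- mice and 64.9 ± 2.16 CPM in Ptk6-/- controls, and all groups compared overlapped. Averaged over strata, the log2 fold change was 0.41 for succinate (SE 0.16, adjusted p 0.228), 0.47 for female against male (SE 0.16, adjusted p 0.18) and 0.13 for genotype (SE 0.16, adjusted p 0.744). Its autosomal copy G6pd2 held 0 to 6 counts per library, against 100 to 9422 for G6pdx.

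Pgd (chr4:149234448-149251164, minus strand) makes the second NADPH of that pathway and was the most abundant of the 10 genes per length. In female Ptk6-/- mice it was at 264, 307 and 319 CPM in the controls and at 422, 604 and 464 CPM after succinate, without overlap. In female wild type mice it was at 417, 367 and 360 CPM in the controls and at 603, 357 and 417 CPM after succinate, which overlapped. The female Ptk6-/- controls also lay below the female wild type controls without overlap. Of all genes 21.2% were apart by treatment in female Ptk6-/- mice and 18.9% by genotype in control females. Male groups averaged 345 ± 66.7 to 457 ± 139 CPM and overlapped. The averaged log2 fold changes were 0.36 for succinate (SE 0.14, adjusted p 0.22), -0.16 for genotype (SE 0.14, adjusted p 0.605) and 0.08 for sex (SE 0.14, adjusted p 0.808).

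**Figure D2:**
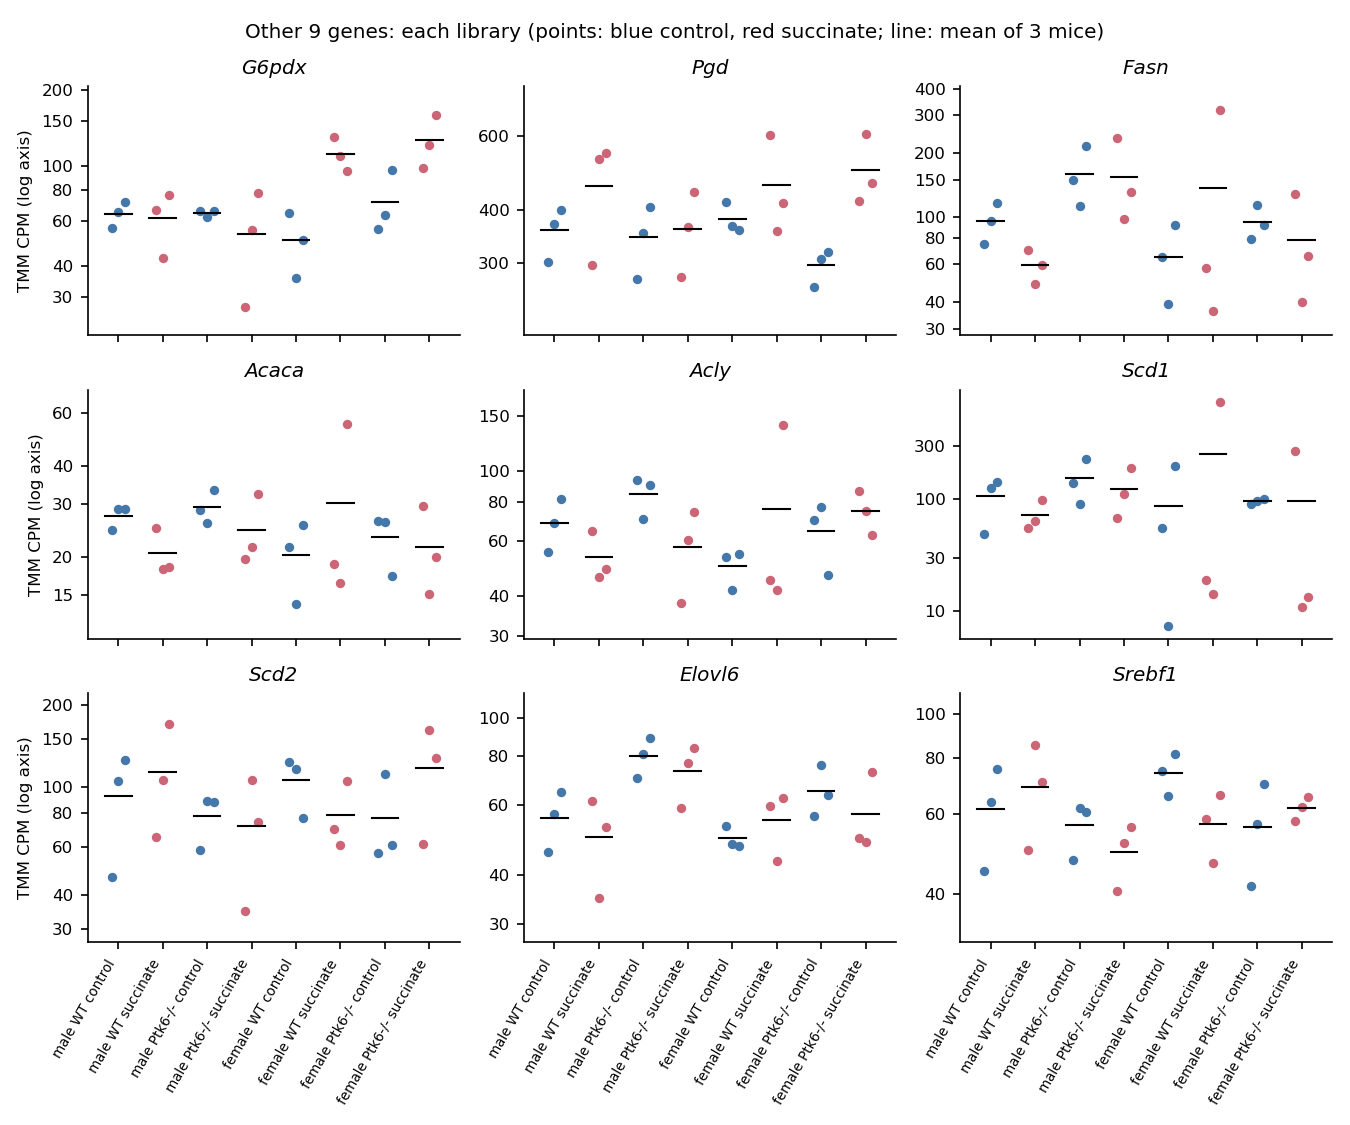
The other 9 genes in each library, in TMM CPM on log axes with a scale of their own; blue points are control mice, red points succinate-treated mice and lines means of 3. G6pdx of succinate-treated females lies above that of the controls of the same genotype, while Scd1 spreads between 7.36 and 734 CPM with no order by treatment.

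Per length, in FPKM, which divides fragments by gene length and library size, the median level over the 24 libraries was highest for Pgd (45.1), followed by G6pdx (17.5), Scd1 (14.8), Scd2 (12.5) and Acly (10.5). Srebf1 (8.16), Elovl6 (6.83), Fasn (5.95), Me1 (5.14) and Acaca (1.07) were lower. The median hides Me1's range, since its mean FPKM was 3.11 ± 0.543 in female Ptk6-/- controls and 63.3 ± 16.1 in their succinate-treated counterparts. There Me1 reached the level of Pgd, 64.4 ± 7.93 FPKM.

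The regulator Srebf1 (chr11:60089915-60113407, minus strand) ranged least of the 10 over the libraries, from 40.6 to 85.7 CPM. Its group means lay between 49.6 ± 8.14 CPM in succinate-treated male Ptk6-/- mice and 74.2 ± 7.85 CPM in female wild type controls, and no pair of groups compared was free of overlap. The averaged log2 fold change was -0.07 for succinate (SE 0.12, adjusted p 0.838), -0.22 for genotype (SE 0.12, adjusted p 0.426) and 0.08 for sex (SE 0.12, adjusted p 0.804).

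The 3 enzymes from citrate to palmitate gave averaged log2 fold changes close to 0 with succinate. Those were -0.03 for Acly (chr11:100367179-100418826, SE 0.18, adjusted p 0.976), -0.05 for Acaca (chr11:84020498-84202227, SE 0.18, adjusted p 0.934) and 0.01 for Fasn (chr11:120696672-120715373, SE 0.29, adjusted p 1). Acly group means ran from 49.9 ± 7.05 CPM in female wild type controls to 84.9 ± 12.7 CPM in male Ptk6-/- controls, and Acaca means from 20.3 ± 5.87 to 30.2 ± 21.6 CPM. In succinate-treated female wild type mice, replicate 3 alone held 140 CPM of Acly and 55.0 CPM of Acaca, while the other two held at most 45.1 and 19.0 CPM. With genotype the averages were 0.20 for Acly (SE 0.18, adjusted p 0.632) and 0.02 for Acaca (SE 0.18, adjusted p 0.993). With sex they were 0.01 (SE 0.18, adjusted p 1) and -0.10 (SE 0.18, adjusted p 0.826).

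Fasn in succinate-treated males was at 70.0, 48.4 and 59.8 CPM in wild type mice and 235, 97.5 and 131 CPM in Ptk6-/- mice. These groups did not overlap, and the log2 fold change was 1.42 (SE 0.41, unadjusted p 0.00839, edgeR adjusted p 1). It ran from 0.54 by limma on log2(FPKM + 1) to 2.45 with the gene length offset, and was 0.91 without replicate 1 of the Ptk6-/- mice. That replicate, at 235 CPM, was the library with 29.7% ribosomal RNA. In control males it was at 75.1, 95.6 and 116 CPM in wild type mice and 149, 113 and 215 CPM in Ptk6-/- mice, which overlapped. Wild type males had less Fasn after succinate than on regular water, without overlap. Of all genes 8.77% were apart by treatment in wild type males and 8.66% by genotype in succinate-treated males. Females of the 2 genotypes overlapped with either water. Averaged over the strata, the log2 fold change with genotype was 0.46 (SE 0.29, adjusted p 0.467) and with sex -0.27 (SE 0.29, adjusted p 0.681).

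Elovl6 (chr3:129326004-129428620) extends palmitate and was higher in Ptk6-/- controls of both sexes without overlap. In control males it was at 45.6, 57.2 and 64.8 CPM in wild type mice and 70.5, 80.9 and 89.0 CPM in Ptk6-/- mice. In control females it was at 53.3, 47.8 and 47.5 CPM in wild type mice and 56.4, 75.8 and 63.7 CPM in Ptk6-/- mice. In the control males 31.4% of all genes were apart by genotype, and so was the slope of log2 counts on log2 gene length, at 0.674 to 0.724 in wild type and 0.830 to 0.889 in Ptk6-/- libraries. In control females 18.9% of all genes were apart by genotype, and that slope overlapped, at 0.643 to 0.722 and 0.632 to 0.864. Its part in the Elovl6 values of the control males was not tested, and with the gene length offset the genotype difference averaged over strata was 0.27. After succinate the genotypes of Elovl6 overlapped in both sexes. Its averaged genotype difference was 0.38 on the log2 scale (SE 0.12) with an unadjusted p of 0.00464 and an edgeR adjusted p of 0.284. Succinate gave -0.08 (SE 0.12, adjusted p 0.775) and sex -0.17 (SE 0.12, adjusted p 0.499).

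**Figure D3:**
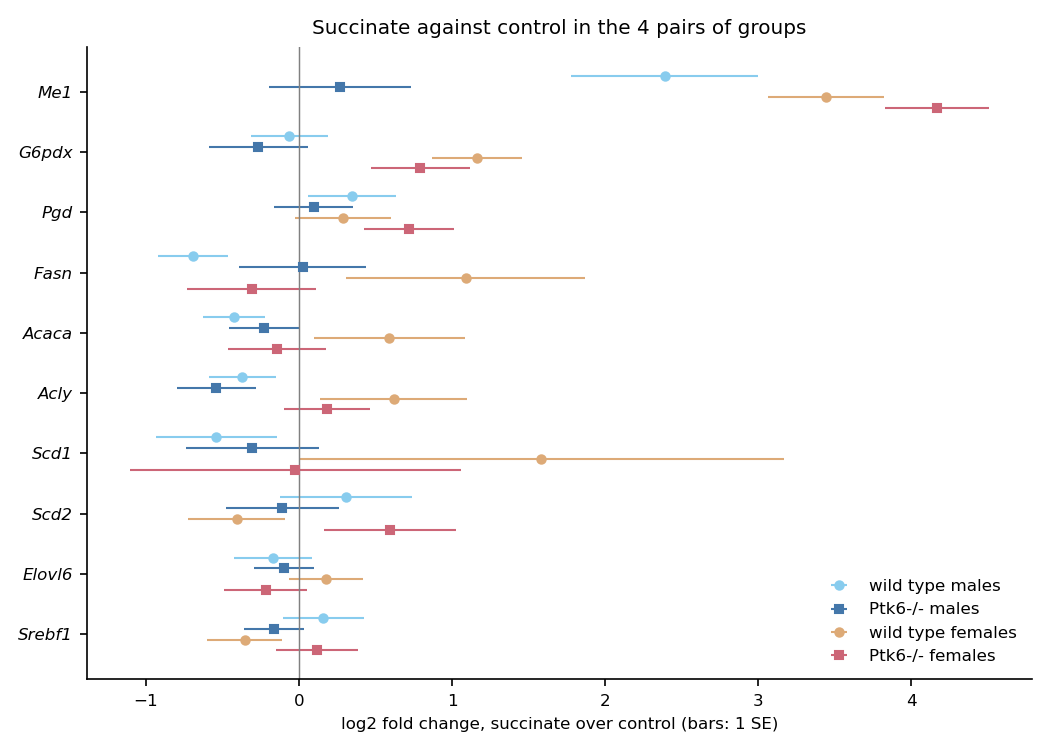
Log2 fold change of each gene, succinate over control, in the 4 pairs of groups, with bars of 1 SE on each side (3 mice against 3). Me1 lies at 4.17 and 3.44 in the females, 2.39 in wild type males and 0.27 in Ptk6-/- males, while the other genes lie between -0.69 and 1.58.

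Scd1 (chr19:44382894-44396148, minus strand), the main stearoyl-CoA desaturase of fat and liver, ranged 99.7-fold over the 24 libraries, with both extremes in female wild type mice. It was at 54.9, 7.36 and 198 CPM in female wild type controls and at 19.1, 14.4 and 734 CPM after succinate. In female Ptk6-/- mice it was at 89.9, 96.7 and 101 CPM in controls and at 267, 11 and 13.4 CPM after succinate. Adiponectin (Adipoq), a hormone of fat cells, was at 4.57, 0.0648 and 12.2 CPM in the same female wild type controls and at 3.12, 0.649 and 26.7 CPM after succinate. In female Ptk6-/- mice Adipoq was at 5.81, 4.12 and 11.4 CPM in controls and at 17.8, 0.434 and 0.0509 CPM after succinate. The library with the most Scd1 thus held the most Adipoq, and the 5 libraries under 20 CPM of Scd1 held at most 3.12 CPM of it. Of the other fat markers, Plin1, which coats the lipid droplets of fat cells, was at 3.96, 0 and 5.81 CPM in female wild type controls and at 2.52, 0.259 and 23.9 CPM after succinate. After succinate in female Ptk6-/- mice Plin1 was at 10.9, 0.158 and 0.153 CPM, Car3 at 56.6, 1.26 and 0.848 CPM and Cfd at 75.2, 6.08 and 0.56 CPM, high and low in the same mice as Adipoq. These markers were chosen after their values were seen, and the 12 of the list did not all share 1 order: in the same mice Cidec, a lipid droplet protein, was at 77.2, 88.8 and 116 CPM and the lipase Lipe at 112, 40.4 and 61.4 CPM. Fabp4, at 45.4, 288 and 83.5 CPM in succinate-treated female wild type mice, was highest in the library with heart markers, where Adipoq was at 0.649 CPM. Averaged over strata, Scd1 gave log2 fold changes of 0.18 with succinate (SE 0.60, adjusted p 0.928), 0.01 with genotype (SE 0.60, adjusted p 1) and 0.13 with sex (SE 0.60, adjusted p 0.955). Leaving out 1 library moved these from -0.80 to 0.55, from -0.74 to 0.99 and from -0.86 to 0.27, each range with both signs. The succinate average was -0.80 without replicate 3 of the succinate-treated female wild type mice and -0.57 without replicate 1 of the succinate-treated female Ptk6-/- mice. Leaving out replicate 1 of the succinate-treated female Ptk6-/- mice turned the difference there from -0.02 to -2.99, which was then called (edgeR adjusted p 0.0415).

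Scd2 (chr19:44282113-44295303), its neighbour on the chromosome and the desaturase of brain and many other tissues, did not spread in this way, and lay between 34.8 and 169 CPM. Its group means were 71.6 ± 35.7 to 117 ± 51.1 CPM. Every pair of groups compared overlapped. The averaged log2 fold changes were 0.09 with succinate (SE 0.22, adjusted p 0.888), -0.20 with genotype (SE 0.22, adjusted p 0.708) and 0.08 with sex (SE 0.22, adjusted p 0.902). The family members Scd3 and Scd4 held at most 38 and 60 counts in any library.

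Within groups, the libraries' deviations from their group means were set against each other on the log2 CPM scale. Pgd moved with Me1 over the 24 libraries, with a Pearson r of 0.762 (permutation within groups, p 0.00041, adjusted 0.00369 over the 9 pairs) and a Spearman rho of 0.791 (p 0.00046, adjusted 0.00414). Without the 2 libraries farthest from the median in Me1, r was 0.658. It was the 1 pair of 9 that passed. Srebf1 followed with r 0.616 (p 0.0114, adjusted 0.0513) and rho 0.576 (p 0.0149, adjusted 0.0672), and Scd2 with r 0.534 (p 0.0622, adjusted 0.187) and rho 0.456 (p 0.0916, adjusted 0.206). For G6pdx r was 0.488 (p 0.146, adjusted 0.328) and rho 0.485 (p 0.0648, adjusted 0.195). For Fasn, Acaca, Acly, Scd1 and Elovl6 r with Me1 lay between -0.065 and 0.176. Without the same 2 libraries r was 0.616 for G6pdx, near that of Pgd, 0.577 for Srebf1 and 0.392 for Scd2. It was then 0.389 for Elovl6, 0.274 for Acly, 0.219 for Acaca, 0.164 for Scd1 and -0.035 for Fasn. Libraries of 1 group share their depth and tissue make-up with each gene in them, so such a correlation describes libraries.

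With Adipoq the order was another. The r of the deviations was 0.934 for Scd1 (rho 0.887), 0.718 for Acaca (rho 0.634), 0.710 for Fasn (rho 0.608) and 0.593 for Acly (rho 0.517), and it was 0.212 for Me1, 0.113 for G6pdx and 0.07 for Pgd. Without the 2 libraries farthest in Adipoq, r was 0.904 for Scd1. Among themselves, Acaca and Acly moved together with r 0.891, Acaca and Scd1 with 0.872, and Fasn and Scd1 with 0.836. Pgd moved with Srebf1 (r 0.726) and Scd2 (r 0.666), while its r with Scd1 was -0.0105. Adipoq was picked after its values were seen, so these are descriptions. The whole list of 12 fat markers summed to 296 to 652 CPM in succinate-treated female wild type mice, 189 to 472 CPM in their controls, 179 to 451 CPM in succinate-treated female Ptk6-/- mice, 245 to 322 CPM in their controls and 219 to 685 CPM in males, and the part of fat in the values of Scd1, Acaca, Fasn and Acly was not tested.

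**Figure D4:**
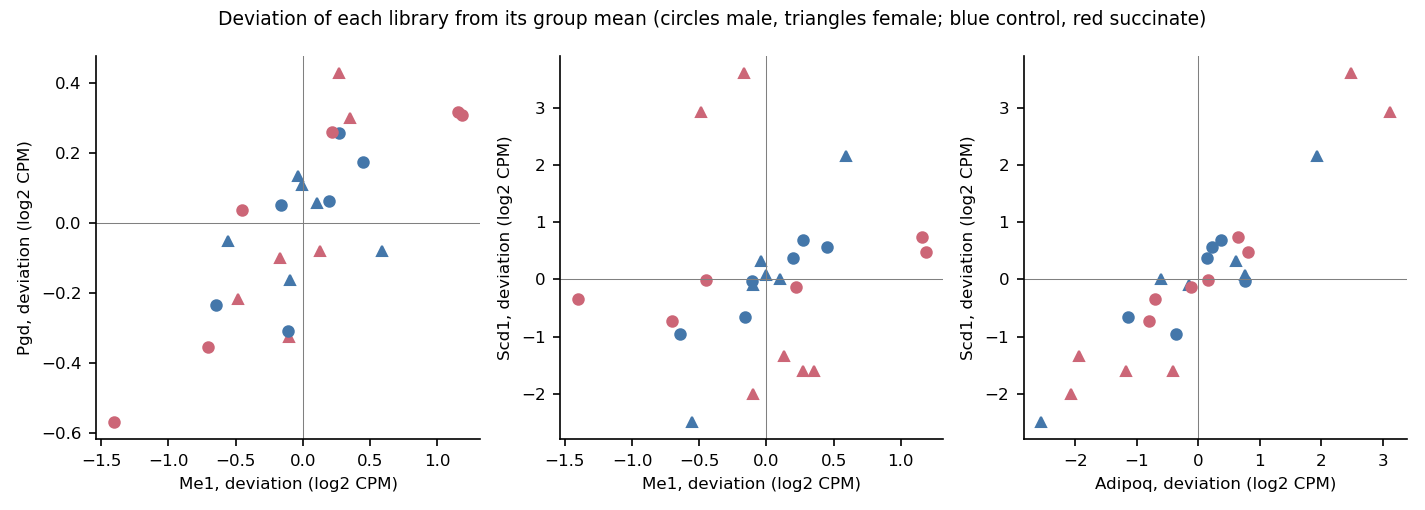
Deviation of each library from its group mean, in log2 CPM, for Pgd against Me1, Scd1 against Me1 and Scd1 against Adipoq; circles are males, triangles females, blue control and red succinate. The points follow a slope in the left panel (r 0.762) and the right panel (r 0.934) and none in the middle (r 0.176).

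Counted over the 15 comparisons, the 10 genes gave 2 calls, both of Me1 and both with succinate. At an unadjusted p under 0.05 by edgeR, 3 of the 10 passed for succinate in female Ptk6-/- mice, where 10.7% of all genes did, and 3 for the succinate average (16.1% of all genes). For genotype 2 passed in control males (25.2%), 2 in succinate-treated males (2.72%) and 1 for the average (13.4%). With succinate 2 passed in wild type males (4.07%) and 2 in wild type females (7.77%), and for the sex average 2 passed (15.3%). Of the interactions, that of genotype with succinate in males had 1 (3.80% of all genes) and that of all 3 factors 1 (5.99%). None of the 10 passed for genotype in control females (11.1%) or succinate-treated females (4.52%), or for succinate in Ptk6-/- males (7.75%). The same held for the interactions of genotype with succinate in females (6.46%) and of sex with genotype in controls (4.64%). DESeq2 called 2 of the 10 with succinate in wild type females, Me1 and G6pdx, where it called 1.38% of all genes, and 1 in wild type males, Me1 (0.246%). Libraries did not overlap for 1 gene by genotype in control males, where 31.4% of all genes did so, 2 in control females (18.9%), 1 in succinate-treated males (8.66%) and 0 in succinate-treated females (10.8%). With succinate they did not overlap for 2 genes in wild type males (8.77% of all genes), 0 in Ptk6-/- males (23%), 2 in wild type females (13.3%) and 3 in Ptk6-/- females (21.2%). With succinate, the 10 genes had a median log2 fold change of 0.60 in wild type females and 0.15 in Ptk6-/- females, beside 0.03 and -0.04 over all genes tested. Without replicate 3 of the succinate-treated female wild type mice the former was -0.15, and leaving out a library moved the latter from 0.11 to 0.42, the highest without replicate 3 of the succinate-treated mice. In males it was -0.11 in wild type and -0.13 in Ptk6-/- mice, beside 0.02 and -0.10, and without a library from -0.26 to 0.0042 (lowest and highest without replicates 1 and 2 of the succinate-treated mice) and from -0.33 to -0.03 (without replicate 3 of the succinate-treated mice and replicate 3 of the controls).

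Other genes of the same pathways were counted over lists. Of 18 other genes of NADPH supply, none was called by edgeR in any of the 15 comparisons, and 2 were higher and 3 lower at an unadjusted p under 0.05 for the succinate average, a p that 16.1% of all genes reached. The smallest p was that of Me2, the mitochondrial malic enzyme that uses NAD. Me2 had a log2 fold change of -0.85 (SE 0.22, edgeR adjusted p 0.0656), against 2.56 for Me1. Me2 averaged 467 ± 32.3 CPM in female wild type controls and 155 ± 129 CPM after succinate, and 404 ± 42.7 and 164 ± 92.8 CPM in female Ptk6-/- mice. Its groups did not overlap in either female genotype, where the lowest controls were at 442 and 377 CPM and the highest treated mice at 304 and 268 CPM. Of all genes 13.3% were apart in this way in wild type and 21.2% in Ptk6-/- females. Me2's log2 fold change was -1.57 in wild type females (SE 0.56, edgeR adjusted p 0.617) and -1.33 in Ptk6-/- females (SE 0.43, adjusted p 0.402). Both were larger in size than the average of -0.85 over both sexes. Nadk, which phosphorylates NAD to NADP, had a log2 fold change of 0.31 (SE 0.13, adjusted p 0.262), and Pgls, the lactonase between G6pdx and Pgd, 0.70 (SE 0.31, adjusted p 0.28). Mthfd1 was at -0.23 (SE 0.10, adjusted p 0.284) and H6pd, the dehydrogenase of the endoplasmic reticulum, at -0.34 (SE 0.16, adjusted p 0.297).

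Of 25 other genes of fatty acid synthesis, 24 were tested for the succinate average and none was called, with 3 up and 2 down at an unadjusted p under 0.05, beside 16.1% of all genes. Fads3, of the fatty acid desaturase family, had a log2 fold change of 0.40 (SE 0.12, edgeR adjusted p 0.123), Acacb, the carboxylase at mitochondria, 0.99 (SE 0.36, adjusted p 0.194) and the elongase Elovl7 -0.31 (SE 0.12, adjusted p 0.217). Acacb was at 8.02, 110 and 11.1 CPM in the 3 succinate-treated female wild type mice, and the library at 110 CPM was the one with heart markers, while all other groups averaged 4.80 to 13.6 CPM. Of 17 regulators of lipogenesis none was called, with 2 up and 3 down at that p, beside the same 16.1%. Nr1h2, which encodes the sterol receptor LXR beta, was at -0.36 (SE 0.12, adjusted p 0.171), Usf1 at 0.43 (SE 0.18, adjusted p 0.247) and Insig1, which holds SREBP in the endoplasmic reticulum, at 0.39 (SE 0.17, adjusted p 0.264).

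Of NRF2 and 15 of its targets, 16 genes in all, none was called by edgeR in any comparison, with 2 up and 1 down at an unadjusted p under 0.05 for the succinate average, beside 16.1% of all genes. Cbr3, a carbonyl reductase that uses NADPH, was at 1.13 (SE 0.29, edgeR adjusted p 0.064), with group means of 2.06 ± 0.673 CPM in female Ptk6-/- controls and 7.64 ± 4.66 CPM after succinate. Gsr, glutathione reductase, was at 0.50 (SE 0.20, adjusted p 0.237) and Cat, catalase, at -0.81 (SE 0.28, adjusted p 0.184). Nfe2l2, which encodes NRF2, was at -0.35 (SE 0.20, adjusted p 0.395) and Nqo1 at -0.24 (SE 0.15, adjusted p 0.45). The median of the 16 was -0.04 on the log2 scale, beside -0.00245 over all genes.

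The genes whose log2 CPM most resembled that of Me1 over the 24 libraries, among 15681 genes, were Cd55, Egln3, Acss1, Gsdmc4, Rgs22, Capn13, Pygl, Rsad1, Gsdmc2 and Pla2g4c, with r from 0.966 down to 0.931. Their values share the same libraries and groups with Me1, so the r is a description. Cd55, which shields cells from complement, averaged 36.1 ± 11.2 CPM in female wild type controls and 212 ± 29.8 CPM after succinate. In males it averaged 37.3 ± 1.42 and 105 ± 62.1 CPM in wild type mice and 48.1 ± 8.16 and 45.9 ± 25.3 CPM in Ptk6-/- mice. Acss1, the mitochondrial acetyl-CoA synthetase, averaged 55.9 ± 7.41 and 157 ± 37.3 CPM in female wild type mice. Of the other members, Pgd ranked 155th by this measure (r 0.761) and G6pdx 201st (r 0.734), and Scd2 came next at 3527th (r 0.334).

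Markers of other cells differed between the same groups. The 8 tuft cell markers, for the chemosensory cells that sense succinate, summed to 23.2 to 43.6 CPM in the 12 controls, 91.1 to 322 CPM in succinate-treated females, 51.5 to 71.2 CPM in succinate-treated male wild type mice and 32.8 to 54.8 CPM in succinate-treated male Ptk6-/- mice. Il25, the cytokine of these cells, was at 0 counts in all 6 male control libraries and in all 3 succinate-treated male Ptk6-/- libraries. It was near the floor elsewhere too, at 0.105 to 0.217 CPM in succinate-treated male wild type mice. In succinate-treated females it was at 0.103 to 1.49 CPM in wild type and 0.054 to 1.20 CPM in Ptk6-/- mice. Replicate 1 of the succinate-treated male Ptk6-/- mice held only 8080320 counts, so 0 counts need not mean absence. The male Ptk6-/- mouse with 51.1 CPM of Me1 was also the one with 54.8 CPM of tuft markers. The 12 enterocyte markers summed to 18604 to 23147 CPM in succinate-treated female Ptk6-/- mice against 23831 to 58577 CPM in their controls, and to 27860 to 37473 against 48688 to 54955 CPM in female wild type mice. The 4 markers of the distal small intestine summed to 136 to 430 CPM in succinate-treated female Ptk6-/- mice against 710 to 2598 CPM in their controls, and to 213 to 1462 against 1553 to 2774 CPM in female wild type mice. Wild type males did not share this: replicates 1, 2 and 3 after succinate, with 28.8, 89.9 and 176 CPM of Me1, held 760, 2436 and 3206 CPM of distal markers against 1475 to 1981 CPM in controls. Their enterocyte markers were at 21883, 45983 and 37610 CPM against 32910 to 34815 CPM in controls. In male Ptk6-/- mice the distal markers summed to 1387 to 8749 CPM after succinate against 799 to 1632 CPM in controls. The enterocyte markers of these mice summed to 36349.5 to 55318.5 against 23403.6 to 36710.2 CPM. Both lists overlapped by treatment there. The part of these cells in the values of Me1 was not tested.

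Other lists were apart by treatment in 1 or 2 of the 4 pairs of groups. The 7 markers of cycling crypt cells in female Ptk6-/- mice summed to 730 to 779 CPM after succinate against 299 to 695 CPM in controls, and the 4 markers of the proximal small intestine to 28.6 to 70.7 against 79.6 to 134 CPM. In male wild type mice the 5 markers of follicle B cells summed to 75.9 to 96.3 CPM after succinate against 13.0 to 59.3 CPM in controls. In male Ptk6-/- mice, whose Me1 overlapped by treatment, the proximal markers summed to 47.7 to 113 against 116 to 149 CPM, the 6 of smooth muscle to 2667 to 2855 against 1719 to 2655 CPM, the 6 of heart to 38.7 to 202 against 14 to 31.2 CPM and the 4 pancreas markers found to 3.64 to 5.49 against 2.51 to 3.42 CPM. The 7 goblet markers (9505 to 25319 CPM over the 24 libraries), the 6 Paneth markers (5307 to 44315 CPM), the 5 liver markers (3.71 to 17.9 CPM) and the 12 fat markers overlapped by treatment in all 4 pairs of groups.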

How the data were processed

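The authors made stranded poly(A) libraries, trimmed reads with Cutadapt, mapped them with HISAT2 and deposited counts per gene without normalization, and FPKM from StringTie and ballgown. The labels list GRCm39, FastQC and StringTie; the counting program is not given in the sources used here. The counts were tested in R 4.3.3 with edgeR 4.0.16 (quasi-likelihood, TMM) over genes that reached 10 counts in 3 or more fitted libraries, in 15 comparisons (8 of 2 groups, 3 averaged over 4 strata, 4 interactions). The study's methods name DESeq2, run here as an alternative beside limma 3.58.1 on log2(FPKM + 1) and voom. Correlations used log2(CPM + 0.5) less the group mean, with 100000 permutations within groups. The test was tried on simulated data.

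The members and lists were chosen with earlier results of these data known. Fold changes were printed for Me1 in every comparison, for every member in the 3 averaged comparisons, and elsewhere where the adjusted p was under 0.05 or libraries did not overlap and the log2 fold change was at least 1; the list genes with the smallest p and the 10 genes most like Me1 were named. Other fold changes were named after their values were seen. Counts in 1 library cover counting error only.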

Additional observations from a re-analysis of the deposited data

How the results depend on the processing

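Me1's succinate average kept its call under each of 13 alternatives (log2 fold change 2.20 to 2.68) and without each library. The share of all genes called is given in brackets. In female Ptk6-/- mice the replicate block (0%), the length offset (0.00517%) and both together (0%) took the count of members called from 1 to 0, while Me1's log2 fold change lay between 3.86 and 4.28 over the 13 alternatives, and leaving out libraries gave 0 to 2 (2 without succinate replicate 1, 0.154%, and 0 in the others, 0% to 0.0157%). In male wild type mice DESeq2 (0.246%), the length offset (0.808%), voom (7.81%) and limma with a pseudocount of 1 (0.909%) or 0.1 (0.916%) called 1 in place of 0, as did leaving out succinate replicate 1 (5.8%, range 0 to 1). In female wild type mice DESeq2 (1.38%) called 2 and voom (0.196%) and the fit of all 24 libraries (0.401%) 1, with 0 to 1 without a library (1 without succinate replicate 3, 3.23%). For sex, DESeq2 (1.56%), limma on log2(FPKM + 1) (0.383%), no filter on low counts (0.313%) and the replicate block (0.263%) called 1, and 0 to 1 were called without a library (1 without replicate 3 of succinate-treated male wild type, 0.407%, male Ptk6-/-, 0.425%, or female wild type mice, 1.97%). Voom (9.52%) called 2 for genotype in succinate-treated males (Me1 and Fasn). In 0 of the 8 comparisons of 2 groups did every same-numbered pair of libraries correlate above 0.1, so they share only a number, and the paired fit changed no other count. With log2(FPKM + 1), 3 pairs passed in place of 1, and 1 to 3 without a library. Without the 3 libraries that stand apart, a choice made after seeing the data, the counts in the 3 averages and 4 interactions stayed at their values; comparisons of 2 groups hold at most 1 of these libraries and were run without each library in turn. Log2 fold changes of single genes took the other sign in 55 of 572 values under an alternative and 61 of 840 without a library, none of them called. With succinate in male Ptk6-/- mice Me1 was -0.659 and -0.412 by limma on FPKM with pseudocounts of 0.1 and 1 (the latter with or without a filter) and -0.524 to 0.541 without a library. With genotype Me1 was -0.132 with the length offset and -0.144 with the block too in control males, and -0.584 to 0.00925 without a library in control females. For the succinate average, the length offset without and with the block gave 0.145 and 0.144 for Acaca, 0.0861 and 0.0873 for Acly, 0.0663 and 0.0578 for Elovl6 and 0.0959 and 0.109 for Srebf1. Limma with the 2 pseudocounts gave -0.194 and -0.163 for Fasn and -0.478 and -0.407 for Scd1, voom -0.269 and -0.354 for these, and the block -0.0581 for Fasn. Without the 3 libraries Acaca was 0.0429, Acly 0.0728 and Fasn -0.00884. For sex, the length offset without and with the block gave -0.142 and -0.131 for Acly, -0.0272 and -0.0257 for Pgd, -0.0366 and -0.401 for Scd1 and -0.0497 and -0.0579 for Srebf1. Voom gave -0.0398 for Acly, -0.0611 for Pgd, -0.664 for Scd1, -0.317 for Scd2 and -0.059 for Srebf1. Limma with the 2 pseudocounts gave -0.709 and -0.558 for Scd1 and 0.0295 and 0.0054 for Elovl6, and 0.0151 for Acaca with 0.1. Acly was -0.0128 by DESeq2, -0.0125 with its size factors and -0.0117 with 10 counts in every library, Scd1 -0.144 with the block and Scd2 -0.0197 without the 3 libraries. For genotype, Acaca was -0.2001 and -0.204 with the length offset without and with the block and -0.0432 without the 3 libraries, and Scd1 -0.0214 with the length offset and -0.138 without the 3. Leaving out 1 library, the succinate average ran from -0.243 to 0.0228 for Acaca, -0.226 to 0.0456 for Acly, -0.3704 to 0.128 for Fasn, -0.804 to 0.548 for Scd1 and -0.0107 to 0.185 for Scd2. Sex ran from -0.194 to 0.0775 for Acly, -0.857 to 0.266 for Scd1 and -0.0123 to 0.184 for Scd2, and genotype from -0.0572 to 0.208 for Acaca and -0.739 to 0.994 for Scd1. The causes were not tested. With 3 mice a group, a call rests on large changes.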

Other observations

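Outside the response to succinate, a few genes of the same lists had small p without a call. Me3, the mitochondrial malic enzyme that uses NADP, averaged a log2 fold change of -1.27 for Ptk6-/- against wild type (SE 0.30, edgeR adjusted p 0.197), and Mcat, the malonyl transferase of mitochondrial fatty acid synthesis, -0.64 (SE 0.15, adjusted p 0.197). Idh2 was at -0.69 with genotype (SE 0.27, adjusted p 0.324). In the 3 succinate-treated female wild type mice Me3 was at 4.39, 27.3 and 3.66 CPM and Idh2 at 82.3, 697 and 71.1 CPM, and the high value of each came from the library with heart markers. Over the other groups the means lay between 1.86 and 3.60 CPM for Me3 and between 67.7 and 103 CPM for Idh2. For female against male, the smallest p of the lists were those of Aldh1l1, a folate enzyme that makes NADPH (-0.53, SE 0.14, adjusted p 0.108), and of the regulators Rxra (-0.39, SE 0.11, adjusted p 0.124) and Srebf2 (-0.37, SE 0.12, adjusted p 0.156). None of these genes was called. Lpin1, a phosphatidate phosphatase that also restrains SREBP, had a log2 fold change with succinate of 1.78 in female wild type mice (SE 0.46, adjusted p 0.511) and 0.91 in female Ptk6-/- mice (SE 0.35, adjusted p 0.446). Averaged over the 4 strata of both sexes it was 0.38 (SE 0.23, edgeR adjusted p 0.408), below either female value.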
